A study of Mus musculus with 12 samples.

Results

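Integrin β3 and the αv integrin family were described as transcripts in 4T1 cells, a triple-negative mammary carcinoma line of BALB/c mice. The 8 members were the genes whose symbol in the gene count table was Itgb3, Itgav, Itga2b, Itgb1, Itgb5, Itgb6, Itgb8 or Itga5, of 40406 entries in all. Of these 8, 7 passed the filter on low counts, as did 15538 genes in the whole table, and Itgb8 did not. The study set cells labelled knockout for integrin β3 against wild-type cells, each given docetaxel, a taxane that stabilises microtubules, or its solvent DMSO.

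The 4 groups had 3 libraries each, called biological triplicates in the labels. The groups were knockout-labelled cells with 10 nM docetaxel, knockout-labelled cells with DMSO, wild-type cells with 10 nM docetaxel and wild-type cells with DMSO. In every group the exposure lasted 24 h and was followed by 48 h in drug-free medium, on dishes coated with poly-L-lysine, a polymer to which cells attach by charge. The sources used here do not say how the knockout was made or whether the knockout-labelled line is 1 clone. The free-text description of wild-type DMSO library 1 names the knockout, while its title and its genotype label say wild type, which was followed. Transcripts of Itgb3 were present at like levels in both genotypes under DMSO, so the name knockout-labelled is kept and each genotype comparison depends on the labels being right. Gene-level counts cannot tell a transcript with a small deletion from an intact one, and no protein was measured.

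Total gene counts ran from 28.7 to 40.8 M per library (M, mega-counts). Wild-type DMSO library 2 stood apart by a share of 3.98% of counts in the noncoding feature Gm23935, against 0.137% to 1.62% in the other 11 libraries. Keratin and epithelial genes of the mammary carcinoma list were counted in all libraries, with 7 of 8 markers tested and Krt5 at 15 counts in all. Each list of markers for other cell types held genes near 0, and all but the endothelial list also held genes with more counts. Among leukocyte markers Ptprc had 28 counts over the 12 libraries and Lyz2 had 3, against 8968 for Cd68 and 10413 for Cd14. Among megakaryocyte and platelet markers Pf4 had 11 counts and Gp9 had 13, against 1043 for Ppbp and 299 for Gp1ba. Among fibroblast markers Lum had 0 counts and Dcn had 7, against 7341 for Pdgfra. The 6 endothelial markers had 3 to 76 counts each. In such bulk RNA, fewer cells of a type and less RNA per cell cannot be told apart.

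Integrins are heterodimers of an α and a β subunit that span the membrane and hold cells to matrix proteins. The αv subunit pairs with β1, β3, β5, β6 or β8, and most of the resulting receptors read the tripeptide RGD in vitronectin, fibronectin, osteopontin or the latent form of TGF-β. The β3 subunit has only αv and the platelet subunit αIIb as partners, while α5 pairs with β1 alone as the classical fibronectin receptor. An α and a β subunit reach the cell surface only as a pair, so the transcript level of 1 subunit does not fix the number of receptors.

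The members lie on 6 chromosomes of GRCm38. Itgb3 (ENSMUSG00000020689.4, β3) spans chr11:104608000-104670476 on the plus strand, and Itga2b (ENSMUSG00000034664.13, αIIb) spans chr11:102453297-102470122 on the minus strand. Itgav (ENSMUSG00000027087.11, αv) spans chr2:83724397-83806916 on the plus strand, and Itgb6 (ENSMUSG00000026971.15, β6) spans chr2:60598292-60722643 on the minus strand. Itgb1 (ENSMUSG00000025809.15, β1) spans chr8:128685654-128733200 on the plus strand. Itgb5 (ENSMUSG00000022817.15, β5) spans chr16:33829665-33949338 on the plus strand. Itgb8 (ENSMUSG00000025321.14, β8) spans chr12:119158022-119238802 on the minus strand. Itga5 (ENSMUSG00000000555.8, α5) spans chr15:103344286-103366763 on the minus strand. Itgav shares 634 bases of exon with the antisense gene Gm13684, which had 291 counts over the 12 libraries against 99505 for Itgav. Whether counting used the strand is not given, so reads in those bases cannot be told apart.

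RefSeq windows of 300 bases around the gene start (250 before, 50 after; GRCm38.p6) were given for 7 of the 8 members, all but Itgb3. Itgb6 had a second window at chr2:60673644-60673943, which is not shown. The windows of the 3 members that were lower in knockout-labelled cells under DMSO are shown, 5′ to 3′ on the gene's own strand, because these genes moved the same way in that comparison. Capitals mark GC boxes (GGGCGG on either strand), the element bound by the Sp1 family.
Itgb6 (chr2:60722554-60722853, minus strand): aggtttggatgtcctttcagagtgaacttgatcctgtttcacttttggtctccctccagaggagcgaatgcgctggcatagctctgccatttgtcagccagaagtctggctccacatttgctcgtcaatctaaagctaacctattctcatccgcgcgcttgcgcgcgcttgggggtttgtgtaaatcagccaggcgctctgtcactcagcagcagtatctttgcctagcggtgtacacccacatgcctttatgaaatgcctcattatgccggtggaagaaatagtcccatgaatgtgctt
Itga5 (chr15:103366742-103367041, minus strand): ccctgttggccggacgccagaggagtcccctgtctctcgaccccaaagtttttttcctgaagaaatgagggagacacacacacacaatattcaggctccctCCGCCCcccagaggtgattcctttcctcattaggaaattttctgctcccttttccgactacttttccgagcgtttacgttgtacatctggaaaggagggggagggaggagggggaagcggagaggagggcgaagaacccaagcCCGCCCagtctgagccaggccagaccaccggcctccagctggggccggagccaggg
Itgav (chr2:83724147-83724446, plus strand): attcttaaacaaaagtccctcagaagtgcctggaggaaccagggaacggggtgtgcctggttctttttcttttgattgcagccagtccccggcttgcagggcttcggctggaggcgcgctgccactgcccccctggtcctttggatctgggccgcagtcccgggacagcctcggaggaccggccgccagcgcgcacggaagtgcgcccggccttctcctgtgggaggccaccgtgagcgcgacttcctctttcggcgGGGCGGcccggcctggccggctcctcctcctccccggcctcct
The 3 windows shown differed in this element. Itga5 held 2 GC boxes, Itgav held 1 and Itgb6 held none, and 35.7% of 32851 mouse windows of the same length held at least 1. None of the 3 held the AP-1 letters TGANTCA, the CCAAT box or the TATA box TATAAA on either strand, which occurred in 7.8%, 37.4% and 13.6% of all windows. The second Itgb6 window held none of these letters or the GC box. These are matches of letters only.

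Counts were scaled to a common library total as CPM, with library sizes adjusted by the trimmed mean of M-values. To set one gene beside another, CPM was divided by the length of the gene's merged exons in kilobases. On this CPM per kilobase scale Itgb1 had the highest mean level over the 12 libraries, at 222. It was followed by Itgb5 at 56.5, Itgav at 23.2, Itgb3 at 11.7, Itga5 at 8.13, Itgb6 at 1.64 and Itga2b at 0.446. Itgb8, the subunit that with αv activates latent TGF-β, was last at 0.00168. The same order of the 8 genes held in 12 of 12 libraries, and again in 12 of 12 with the longest transcript as the length. Across libraries the ranges of neighbours touched in 1 place: Itgb6 reached down to 0.679 CPM per kilobase in a knockout-labelled library and Itga2b up to 0.861 in a wild-type one. Itgb8 had 8 counts in all, with 3, 0 and 0 in the knockout-labelled docetaxel libraries, 2, 0 and 0 in the knockout-labelled DMSO libraries, 2, 0 and 0 in wild-type docetaxel libraries, and 0, 1 and 0 in the wild-type DMSO libraries. At this depth no difference in Itgb8 could be detected, and no fold is given.

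**Figure D1:**
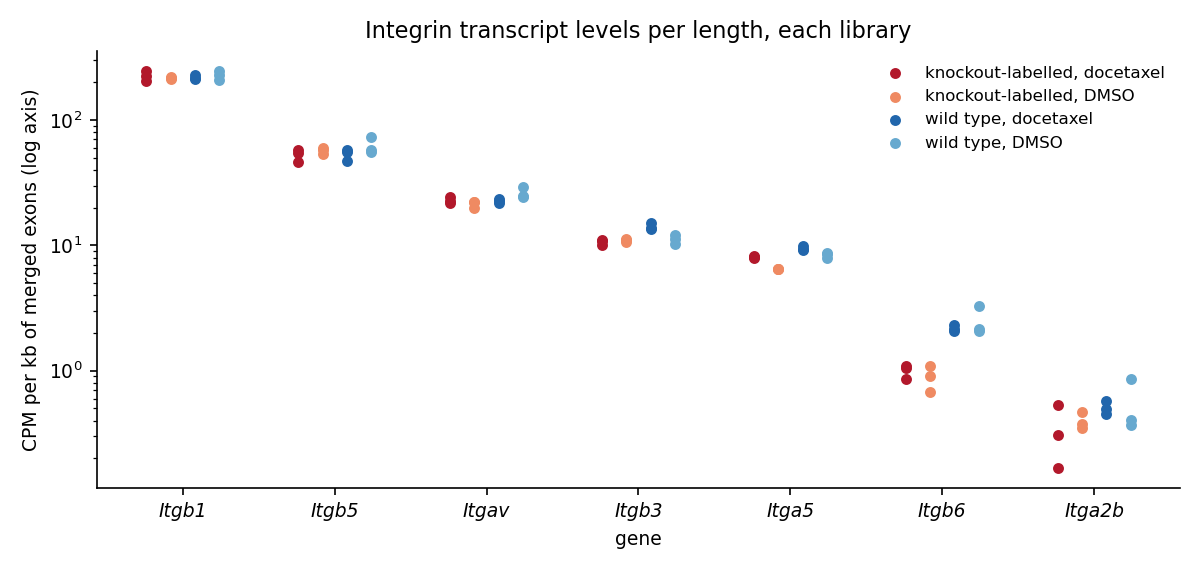
Level of the 7 tested members per length, in CPM per kilobase of merged exon on a log axis, with 1 point per library coloured by group. Itgb1 lies highest in every library at 205 to 248, Itgb3 lies between 10.0 and 15.03, and Itgb8, with 8 counts in all, is not drawn.

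Differences were tested with edgeR's quasi-likelihood test on the counts, with Benjamini-Hochberg adjustment over the 15538 genes, called at an adjusted p of 0.05, and are given as log2 differences with standard errors (SE) and 95% intervals. The first question was whether the family differed between genotypes without drug. Under DMSO 3 of 7 tested members were lower in knockout-labelled than in wild-type cells, and 0 were higher. Of all tested genes 9.20% were lower and 6.60% higher. At an unadjusted p below 0.05 the counts were also 3 lower and 0 higher, and DESeq2 and limma-voom called the same numbers. The median log2 difference was −0.28 over the 7 members and 0.01 over all genes. None of Itgb1, Itgb5 and Itgb6, the tested genes of other β partners of αv, was called higher in the knockout-labelled cells, and Itgb8 was too low to test.

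Itgb6 encodes the epithelial β6 subunit, whose receptor αvβ6 releases active TGF-β from its latent complex. It had 4.83, 7.69 and 6.49 CPM in knockout-labelled DMSO libraries, against 14.9, 23.2 and 15.2 CPM in wild-type DMSO libraries. All 3 knockout-labelled libraries lay below all 3 wild-type libraries, and wild-type library 2 lay highest. The log2 difference was −1.48 ± 0.19 (SE; 95% interval −1.89 to −1.08; edgeR adjusted p = 0.000147), which is a level 0.357 times that of wild-type cells. Without wild-type DMSO library 1, whose description names the knockout, it was −1.60 (edgeR adjusted p = 0.000163). That library held 14.9 CPM of Itgb6, on the wild-type side of the gap.

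After docetaxel the Itgb6 level was 7.74, 6.16 and 7.52 CPM in the knockout-labelled libraries, against 15.4, 14.8 and 16.3 CPM in the wild-type libraries. The groups again did not overlap, and the log2 difference was −1.12 ± 0.19 (95% interval −1.52 to −0.72; edgeR adjusted p = 0.00242). Both genotype differences passed in all 22 alternative analyses. The fibroblast marker list moved the same way. Its summed level, of which 2 of 7 genes were tested and Pdgfra held most, ran from 14.8 to 18.7 CPM in knockout-labelled and from 28.6 to 30.6 CPM in wild-type DMSO libraries. After docetaxel it ran from 12.0 to 14.6 CPM in knockout-labelled and from 19.6 to 21.01 CPM in wild-type libraries. The part of this in the Itgb6 difference was not tested.

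Itga5 encodes α5, which joins β1 to bind fibronectin. It had 31.9, 32.2 and 32.2 CPM in knockout-labelled DMSO libraries, against 39.4, 43.2 and 41.9 CPM in wild-type DMSO libraries. The groups did not overlap, and the knockout-labelled libraries lay within 1 CPM of each other. The log2 difference was −0.37 ± 0.07 (95% interval −0.53 to −0.21; edgeR adjusted p = 0.00414), and −0.40 without wild-type DMSO library 1 (edgeR adjusted p = 0.00247). It passed in all 22 alternatives.

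Itgav, the αv subunit itself, had 213, 239 and 236 CPM in knockout-labelled DMSO libraries, against 264, 312 and 261 CPM in wild-type DMSO libraries. The groups did not overlap, with wild-type library 2 highest. The log2 difference was −0.28 ± 0.09 (95% interval −0.47 to −0.09; edgeR adjusted p = 0.0418). This call was lost in 12 of 22 alternatives. The adjusted p was 0.173 without wild-type DMSO library 2, and 0.187, 0.0691 and 0.0870 without knockout-labelled DMSO libraries 1, 2 and 3. It ran from 0.0533 to 0.0653 without wild-type docetaxel library 1, 2 or 3 or knockout-labelled docetaxel library 3, and was 0.0277 without wild-type DMSO library 1.

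The most abundant αv partners, β1 and β5, showed no difference past the test. Itgb1, the β subunit shared by most matrix-binding integrins, had 878, 872 and 895 CPM in knockout-labelled DMSO libraries, against 939, 1008 and 852 CPM in wild-type DMSO libraries. The groups overlapped, and the log2 difference was −0.08 ± 0.09 (95% interval −0.27 to 0.11; edgeR adjusted p = 0.603). The interval leaves room for a level between 0.827 and 1.08 times that of wild-type cells.

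Itgb5, whose product with αv binds vitronectin, had 192, 214 and 206 CPM in knockout-labelled DMSO libraries, against 205, 198 and 261 CPM in wild-type DMSO libraries. The groups overlapped, with wild-type library 3 standing above the rest. The log2 difference was −0.12 ± 0.12 (95% interval −0.37 to 0.13; edgeR adjusted p = 0.553). Itga2b, the platelet αIIb subunit, had 2.56, 1.89 and 2.06 CPM in knockout-labelled DMSO libraries, against 2.22, 2.00 and 4.69 CPM in wild-type DMSO libraries. These groups also overlapped, and the log2 difference was −0.46 ± 0.37 (95% interval −1.26 to 0.35; edgeR adjusted p = 0.455).

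**Figure D2:**
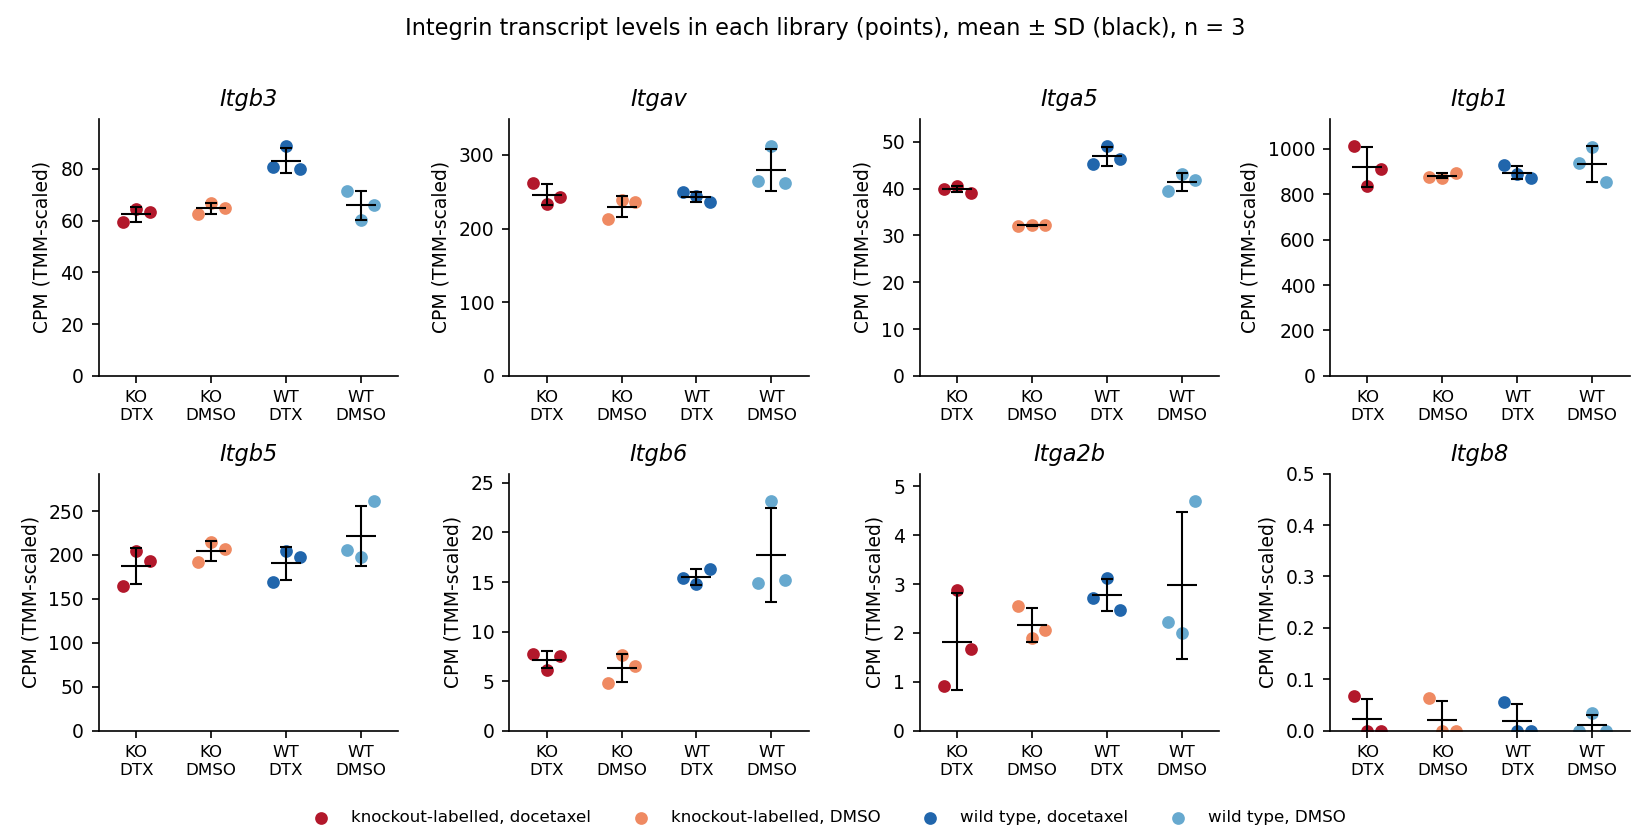
Level of each member in CPM, with 1 point per library and the group mean ± SD in black (n = 3), each panel on its own axis from 0. Itgb6 lies at 4.83 to 7.74 CPM in the 6 knockout-labelled libraries and at 14.8 to 23.2 CPM in the 6 wild-type libraries, while Itgb1 and Itgb5 overlap between genotypes.

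After docetaxel 2 of 7 members, Itgb3 and Itgb6, were lower in knockout-labelled than in wild-type cells and 0 were higher. Of all tested genes 3.39% were lower and 2.50% higher. At an unadjusted p below 0.05 the member counts were 3 lower and 0 higher, with 3 and 0 called by DESeq2 and 2 and 0 by limma-voom. The median log2 difference was −0.23 over the members and 0.01 over all genes.

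Itgb3 itself had 59.3, 64.6 and 63.4 CPM in knockout-labelled docetaxel libraries, against 80.6, 88.7 and 80.0 CPM in wild-type docetaxel libraries. The groups did not overlap, and the log2 difference was −0.41 ± 0.08 (95% interval −0.59 to −0.24; edgeR adjusted p = 0.00765). Under DMSO the levels were 62.4, 66.7 and 65.0 CPM in the knockout-labelled libraries and 71.4, 60.1 and 66.1 CPM in the wild-type libraries, and these overlapped. The DMSO difference of −0.03 ± 0.08 has a 95% interval of −0.20 to 0.15 (edgeR adjusted p = 0.874), which corresponds to 0.868 to 1.11 times the wild-type level. Its sign turned to 0.04 without wild-type DMSO library 1.

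Itga5 did not pass after docetaxel although its groups did not overlap, with 40.0, 40.5 and 39.1 CPM in knockout-labelled libraries, against 45.2, 49.1 and 46.4 CPM in wild-type libraries. Its log2 difference was −0.23 ± 0.07 (95% interval −0.39 to −0.08; edgeR adjusted p = 0.0837). DESeq2 gave it an adjusted p of 0.0333. Itgav had 261, 233 and 243 CPM in knockout-labelled libraries and 250, 243 and 236 CPM in wild-type libraries, which overlapped, at a log2 difference of 0.02 ± 0.09 (95% interval −0.17 to 0.20; edgeR adjusted p = 0.948). For Itgb1 the log2 difference was 0.04 ± 0.09 (95% interval −0.16 to 0.23; edgeR adjusted p = 0.889), and for Itgb5 it was −0.03 ± 0.12 (95% interval −0.28 to 0.22; edgeR adjusted p = 0.944). The signs of these small differences turned in some alternatives. Itga2b overlapped between genotypes, at a log2 difference of −0.62 ± 0.37 (95% interval −1.42 to 0.18; edgeR adjusted p = 0.433).

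The second question was how the family responded to docetaxel. In wild-type cells 1 of 7 members, Itgb3, was higher after docetaxel than after DMSO and 0 were lower, where 14.5% of all tested genes were higher and 13.8% lower. At an unadjusted p below 0.05, 2 were higher and 1 lower, and DESeq2 and limma-voom each called 1 and 0. The median log2 change was −0.10 over the members and 0.02 over all genes. In knockout-labelled cells 1 of 7 members, Itga5, was higher and 0 were lower, where 9.09% of all tested genes were higher and 7.00% lower. There 1 was higher and 0 lower at an unadjusted p below 0.05, and DESeq2 and limma-voom each called 1 and 0. The median was 0.06 over the members and 0.00 over all genes. The wild-type DMSO libraries serve both this comparison and the genotype comparison under DMSO, and the other groups are shared in the same way.

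The Itgb3 increase in wild-type cells had a log2 fold change of 0.34 ± 0.08 (95% interval 0.16 to 0.51; edgeR adjusted p = 0.00856), from the library values above, which did not overlap. It passed with each single library left out, with adjusted p from 0.00384 to 0.0428. Leaving out both the wild-type DMSO replicate 2 and the knockout-labelled docetaxel replicate 3 gave an adjusted p of 0.0563. The log2 fold change was 0.40 without wild-type DMSO library 1 (edgeR adjusted p = 0.00384). In knockout-labelled cells the change was −0.05 ± 0.08 (95% interval −0.23 to 0.13; edgeR adjusted p = 0.725).

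The Itga5 increase in knockout-labelled cells had a log2 fold change of 0.31 ± 0.07 (95% interval 0.15 to 0.47; edgeR adjusted p = 0.0113), which is 1.24 times the DMSO level. All 3 docetaxel libraries lay above all 3 DMSO libraries. With no filter on low counts its adjusted p was 0.0571. In wild-type cells Itga5 also did not overlap between docetaxel and DMSO, at a log2 fold change of 0.18 ± 0.07 (95% interval 0.02 to 0.33; edgeR adjusted p = 0.0884), and did not pass. With genes kept at 1 CPM or more in 3 libraries it passed, at 0.0452.

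Marker lists also moved with docetaxel. The leukocyte list was higher. Its summed level, mainly of Cd68 and Cd14 with 4 of 8 genes tested, ran from 56.7 to 66.3 CPM after docetaxel and from 32.7 to 44.7 CPM after DMSO in knockout-labelled libraries. In wild-type libraries it ran from 54.1 to 65.3 CPM after docetaxel and from 34.9 to 53.7 CPM after DMSO. Ptprc and Lyz2 were near 0, at 28 and 3 counts over the 12 libraries. The megakaryocyte and platelet list, 3 of 8 genes tested, ran from 5.15 to 6.21 CPM after docetaxel and from 2.78 to 3.61 CPM after DMSO in knockout-labelled libraries, and from 2.93 to 3.71 CPM after docetaxel and from 2.22 to 2.87 CPM after DMSO in wild-type libraries.

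The fibroblast sums given with Itgb6 did not overlap between docetaxel and DMSO in either genotype and were lower after docetaxel. The carcinoma list ran from 2820 to 3888 CPM after docetaxel and from 4015 to 4232 CPM after DMSO in knockout-labelled libraries, and from 2865 to 3576 CPM after docetaxel and from 3133 to 4193 CPM after DMSO in wild-type libraries, where the ranges overlapped. The endothelial list, 1 of 6 genes tested, ran from 0.503 to 0.799 CPM after docetaxel and from 0.391 to 0.705 CPM after DMSO in knockout-labelled libraries, and from 0.960 to 1.08 CPM after docetaxel and from 0.174 to 0.507 CPM after DMSO in wild-type libraries. The part of these lists in the changes of Itgb3 and Itga5 was not tested.

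Among the other members the docetaxel changes did not pass. Itgav changed by −0.20 ± 0.09 on the log2 scale (edgeR adjusted p = 0.102) in wild-type cells, where its libraries did not overlap, and it passed at 0.0262 after a correction of each library for GC content. In knockout-labelled cells it was 0.10 ± 0.09 (edgeR adjusted p = 0.478). Itgb6 changed by 0.17 ± 0.19 in knockout-labelled cells (edgeR adjusted p = 0.587) and by −0.19 ± 0.18 in wild-type cells (edgeR adjusted p = 0.459). The wild-type value turned to 0.05 without wild-type DMSO library 2. Itgb1 and Itgb5 had log2 fold changes between −0.22 and 0.06 in the 2 genotypes, with edgeR adjusted p from 0.183 to 0.703. Itga2b changed by −0.27 ± 0.38 in knockout-labelled cells (edgeR adjusted p = 0.689) and by −0.10 ± 0.37 in wild-type cells (edgeR adjusted p = 0.863).

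The interaction, which asks whether the docetaxel change differed between genotypes, called 0 of 7 members with edgeR, DESeq2 or limma-voom, where 0.109% of all tested genes were called by edgeR in either direction. At an unadjusted p below 0.05, Itgav was higher and Itgb3 lower. For Itgb3 the interaction was −0.39 ± 0.12 on the log2 scale (95% interval −0.64 to −0.14; edgeR adjusted p = 0.294). With wild-type DMSO library 1 left out it was −0.45 (edgeR adjusted p = 0.0542), the lowest adjusted p of its alternatives. It passed in 0 of 21 alternatives, with adjusted p up to 0.862. For Itgav it was 0.30 ± 0.12 (edgeR adjusted p = 0.403). The docetaxel responses of the members were therefore not shown to differ between genotypes.

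**Figure D3:**
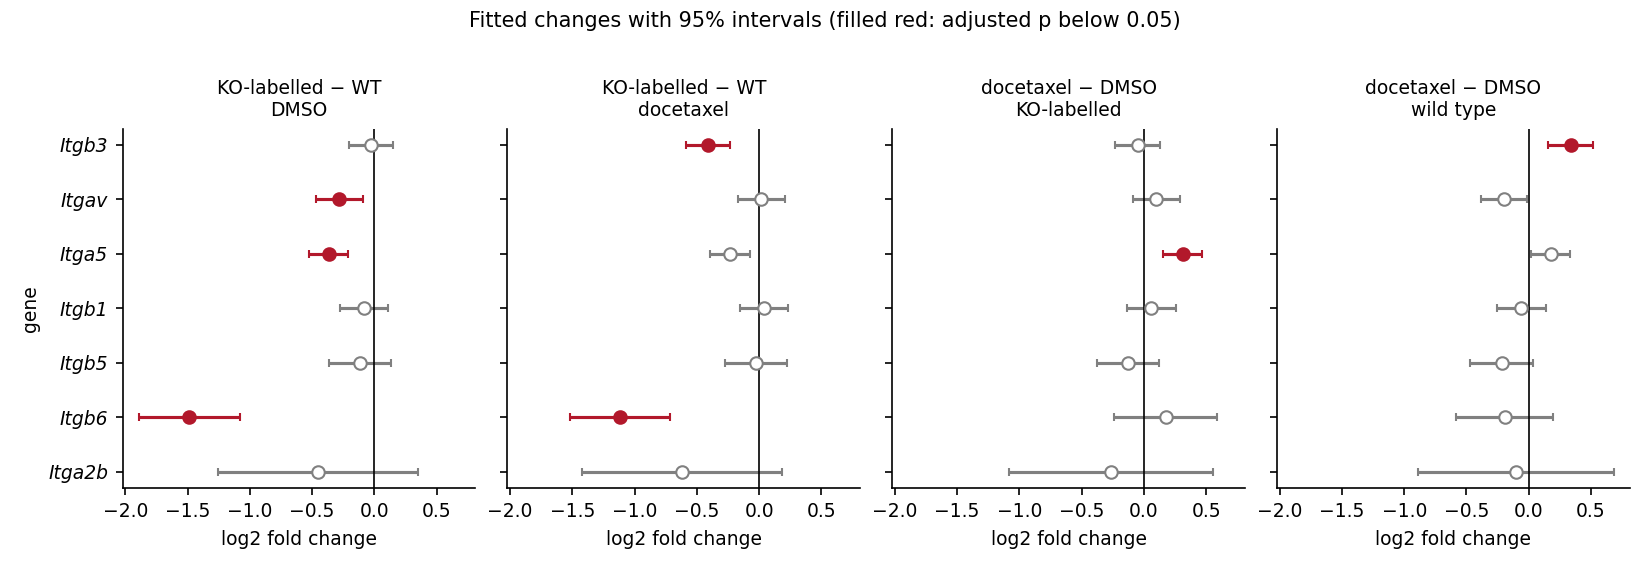
Log2 differences of the 7 tested members in the 4 comparisons, with 95% intervals from edgeR's fit and filled points for those past the adjusted p of 0.05. Itgb6 lies farthest from 0, at −1.48 under DMSO and −1.12 after docetaxel between genotypes.

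To see how the β3 share stood among the αv partners, the levels per kilobase of Itgb1, Itgb3, Itgb5, Itgb6 and Itgb8 were summed in each library. Much β1 pairs with other α subunits, so these shares describe transcripts and not receptors. The β sum averaged 289.5 ± 15.7 CPM per kilobase in knockout-labelled docetaxel, 285 ± 4.61 in knockout-labelled DMSO, 289 ± 4.19 in wild-type docetaxel and 305 ± 10.4 in wild-type DMSO libraries (SD, n = 3 each). Itgb3 made up 3.67% ± 0.354 of it in knockout-labelled docetaxel and 3.84% ± 0.0909 in knockout-labelled DMSO libraries. In wild-type cells it made up 4.87% ± 0.237 after docetaxel and 3.67% ± 0.405 after DMSO.

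The wild-type docetaxel libraries, at 4.70% to 5.14%, lay above all other libraries, at 3.22% to 4.01%. Itgb6 made up 0.346% ± 0.0260 and 0.312% ± 0.0676 in knockout-labelled docetaxel and DMSO libraries, against 0.754% ± 0.0484 and 0.815% ± 0.187 in wild-type docetaxel and DMSO libraries. Itgb1 took 75.0% to 77.7% and Itgb5 18.3% to 20.5% of the sum as group means. The Itgav level per kilobase equalled 7.91% ± 0.0797 and 7.48% ± 0.364 of the β sum in knockout-labelled docetaxel and DMSO libraries, against 7.81% ± 0.154 and 8.51% ± 0.581 in wild-type docetaxel and DMSO libraries. The αv transcript was thus less abundant per length than the summed β transcripts in every group.

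**Figure D4:**
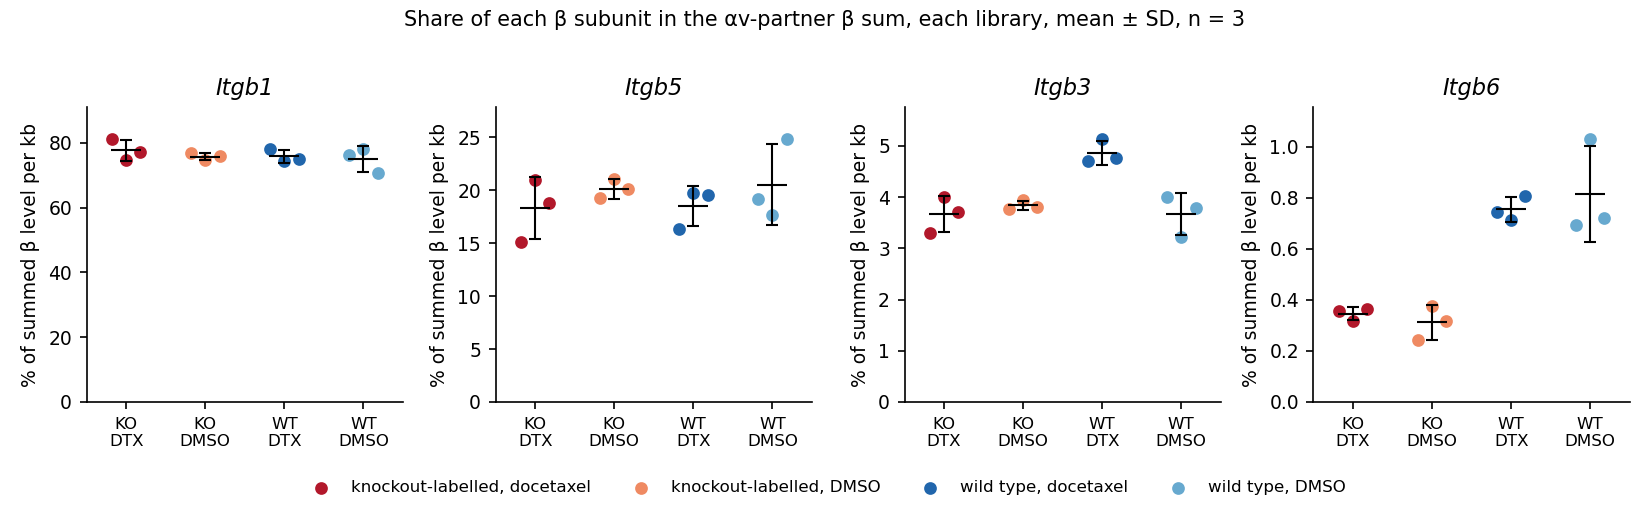
Share of each β subunit gene in the summed level per kilobase of the 5 β genes that can pair with αv, in percent, with 1 point per library and the group mean ± SD (n = 3). Itgb8 is not drawn. The 3 wild-type docetaxel libraries hold the highest Itgb3 shares, at 4.70% to 5.14%, and the knockout-labelled libraries the lowest Itgb6 shares.

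Within groups, several members varied with the GC content of their transcripts. Itgb1 (44.8% GC), Itgav (43.5%) and Itgb6 (44.1%) are GC-poor among the members, while Itgb5 (57.0%), Itga5 (57.3%) and Itga2b (58.2%) are GC-rich. Knockout-labelled docetaxel library 1 favoured GC-poor genes, with a slope of −0.198 log2 units per 10 percentage points of GC, and had the highest Itgb1 and Itgav levels of its group and the lowest of Itgb5 and Itga2b. Wild-type DMSO library 2 had a slope of −0.133 and the highest Itgb1, Itgav and Itgb6 levels of its group. Wild-type DMSO library 3, with a slope of 0.130, had the highest Itgb5 and Itga2b levels and the lowest of Itgb1. Itga5 did not follow this order in these libraries. It was highest of its group in wild-type DMSO library 2, at 43.2 CPM, and the middle value in wild-type DMSO library 3 and in knockout-labelled docetaxel library 1. In other libraries it did. Itga5 was highest of its group in knockout-labelled docetaxel library 2 (slope 0.163), at 40.5 CPM. It was lowest of its group in wild-type docetaxel library 1 (slope −0.0991), at 45.2 CPM. Itgb3, at 52.1% GC, was lowest of its group in knockout-labelled docetaxel library 1 (59.3 CPM) and wild-type DMSO library 2 (60.1 CPM). It was highest in knockout-labelled docetaxel library 2, at 64.6 CPM. It was the middle value in wild-type DMSO library 3 (66.1 CPM) and wild-type docetaxel library 1 (80.6 CPM). With the GC correction the SE under DMSO between genotypes became 0.06 for Itgb1 and 0.08 for Itgb5, at log2 differences of −0.05 and −0.16, and neither passed (edgeR adjusted p = 0.664 and 0.187).

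The genes most like Itgb3 were taken by Pearson's r of log2 CPM over the 12 libraries, among 9779 protein-coding genes, as a description of libraries that fall into 4 groups. They were Tars2, a mitochondrial threonyl-tRNA synthetase (r = 0.931), Vgll4, a cofactor that competes with YAP for TEAD factors (0.907), Tm9sf1 (0.893), Kctd17 (0.890) and Zfp503 (0.881). Leaving out 1 library at a time moved these r values between 0.846 and 0.959. Since they were picked by r with Itgb3 over these same libraries, a peak shared with Itgb3 is largely built in by that choice. All 5 reached their highest level in a wild-type docetaxel library, as Itgb3 did. Tars2 ran from 36.9 to 39.9 CPM there and up to 37.2 CPM in wild-type libraries after DMSO, which overlap. Kctd17, for example, ran from 19.5 to 24.5 CPM in knockout-labelled docetaxel and 20.9 to 23.2 CPM in knockout-labelled DMSO libraries. In wild-type libraries it ran from 38.5 to 40.9 CPM after docetaxel and from 24.6 to 31.4 CPM after DMSO.

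Integrin β subunits that do not pair with αv were also listed, and 3 of 4 were tested. Between genotypes under DMSO 2 of 3, Itgb2 and Itgb7, were higher in knockout-labelled cells and 0 were lower (0 also at an unadjusted p below 0.05 and with DESeq2 or limma-voom). The same counts held after docetaxel. Of all tested genes 6.60% were higher and 9.20% lower under DMSO, and 2.50% higher and 3.39% lower after docetaxel. Itgb2, the β2 subunit of leukocyte integrins, averaged 47.6 ± 2.63 CPM in knockout-labelled and 5.62 ± 0.734 CPM in wild-type DMSO libraries (SD, n = 3 each). After docetaxel it averaged 45.1 ± 6.02 CPM in knockout-labelled and 8.99 ± 1.20 CPM in wild-type libraries. Its log2 differences of 3.08 ± 0.14 and 2.32 ± 0.13 (edgeR adjusted p = 4.71e-09 and 7.38e-08) were larger than that of any member, and the first was 3.18 without wild-type DMSO library 1.

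The α partners of β2 were near 0, with 35 counts of Itgal, 27 of Itgam, 11 of Itgax and 25 of Itgad over the 12 libraries. The summed level of the leukocyte list, mainly of Cd68 and Cd14, overlapped between genotypes under DMSO in the ranges given above. The part of leukocytes in the Itgb2 difference was not tested. Itgb7, which pairs with α4 or αE, averaged 17.2 ± 3.51 CPM in knockout-labelled and 8.48 ± 0.924 CPM in wild-type docetaxel libraries (log2 difference 1.02 ± 0.17, edgeR adjusted p = 0.00265). Its DMSO difference of 0.60 (edgeR adjusted p = 0.0288) did not pass without wild-type DMSO library 1, at 0.0794, nor without wild-type DMSO library 2 or any one of the knockout-labelled DMSO libraries. Itga4, the α4 gene, had 5 counts in all. Itgae, the αE gene, averaged 1.06 ± 0.130 CPM in knockout-labelled docetaxel and 1.03 ± 0.223 CPM in knockout-labelled DMSO libraries. In wild-type libraries it averaged 1.82 ± 0.321 CPM after docetaxel and 0.710 ± 0.0965 CPM after DMSO.

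Other α subunits, 8 of 15 tested, showed 1 higher and 0 lower between genotypes under DMSO, with 0 lower at an unadjusted p below 0.05. Of all tested genes 6.60% were higher and 9.20% lower. The higher α subunit gene was Itga1, a collagen receptor subunit, at a log2 difference of 0.72 ± 0.20 (edgeR adjusted p = 0.0232). It did not hold when wild-type DMSO library 2 or 3 or knockout-labelled DMSO library 1 or 3 was left out. After docetaxel 0 of 8 passed between genotypes with edgeR, DESeq2 or limma-voom, and at an unadjusted p below 0.05, 1 was higher and 1 lower. With docetaxel 2 of 8 were higher and 2 lower in wild-type cells. In knockout-labelled cells 0 were higher, also at an unadjusted p below 0.05 and with DESeq2 or limma-voom, and 1, Itga3, was lower, a call lost without knockout-labelled docetaxel library 1 or 3 or any knockout-labelled DMSO library. Itga3 encodes α3, another laminin-binding subunit. In knockout-labelled cells its log2 fold change was −0.31 ± 0.08 (edgeR adjusted p = 0.0232). With the GC correction it was −0.20 (edgeR adjusted p = 0.0515). Itga3 was lower in wild-type cells too, at −0.38 ± 0.08 (edgeR adjusted p = 0.00479), and passed there in all 22 alternatives. Itga6, the laminin-binding α6 subunit, averaged 249 ± 9.07 CPM after docetaxel and 339 ± 15.1 CPM after DMSO in wild-type cells (log2 fold change −0.44 ± 0.08, edgeR adjusted p = 0.00125). In knockout-labelled cells Itga6 averaged 270 ± 23.6 CPM after docetaxel and 318 ± 9.11 CPM after DMSO and did not pass (log2 fold change −0.24 ± 0.08, edgeR adjusted p = 0.0575). Itgb4, its β4 partner in hemidesmosomes, had log2 fold changes of −0.71 in knockout-labelled and −0.80 in wild-type cells (edgeR adjusted p = 0.000327 and 0.000110).

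Ligands of αv integrins and α5β1 came from a list of 24 genes, of which 17 were tested. Vitronectin (Vtn) had 6 counts over the 12 libraries and the fibrinogen chains Fga, Fgb and Fgg had 0, 21 and 2. The abundant ligands were fibronectin and osteopontin. Fn1, fibronectin, averaged 2365 ± 130 CPM after docetaxel and 3299 ± 87.6 CPM after DMSO in knockout-labelled cells (log2 fold change −0.48 ± 0.09, edgeR adjusted p = 0.00244). In wild-type cells Fn1 averaged 2419 ± 158 CPM after docetaxel and 2957 ± 233 CPM after DMSO (log2 fold change −0.29 ± 0.09, edgeR adjusted p = 0.0261). Spp1, osteopontin, averaged 1086 ± 207 CPM after docetaxel and 899 ± 20.7 CPM after DMSO in knockout-labelled cells (log2 fold change 0.27 ± 0.12, edgeR adjusted p = 0.156). In wild-type cells it averaged 1239 ± 109 CPM after docetaxel and 970 ± 103 CPM after DMSO (log2 fold change 0.35 ± 0.12, edgeR adjusted p = 0.0475).

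Between genotypes under DMSO 3 of 17 ligands were higher and 5 lower, at a median log2 difference of −0.11 against 0.01 for all genes. The shares over all tested genes were 6.60% higher and 9.20% lower. Without knockout-labelled DMSO library 1 the sum of 8 ligands became 5. L1cam, an adhesion molecule that carries RGD, averaged 29.2 ± 2.74 CPM in knockout-labelled and 45.9 ± 7.66 CPM in wild-type DMSO libraries (log2 difference −0.65 ± 0.12, edgeR adjusted p = 0.00185). Ccn2, a matricellular protein formerly called Ctgf, averaged 60.0 ± 3.64 CPM in knockout-labelled and 39.6 ± 5.56 CPM in wild-type DMSO libraries (log2 difference 0.60 ± 0.10, edgeR adjusted p = 0.00121). After docetaxel 1 ligand was higher and 4 lower between genotypes, where 2.50% of all tested genes were higher and 3.39% lower. The sum of 5 ligands became 2 or 3 without any one library outside the wild-type DMSO group. The disintegrin Adam15 was among these, at 38.3 ± 4.18 CPM in knockout-labelled and 58.3 ± 4.19 CPM in wild-type libraries (log2 difference −0.60 ± 0.10, edgeR adjusted p = 0.00187).

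Docetaxel moved 5 of 17 ligands up and 5 down in wild-type cells, and 4 up and 3 down in knockout-labelled cells, where the sum of 7 became 11 without wild-type DMSO library 1. Of all tested genes 14.5% were higher and 13.8% lower in wild-type cells, and 9.09% higher and 7.00% lower in knockout-labelled cells. Ccn2 was higher after docetaxel in both genotypes, with log2 fold changes of 0.46 ± 0.10 in knockout-labelled and 0.85 ± 0.10 in wild-type cells (edgeR adjusted p = 0.00660 and 7.65e-05). Ccn1, formerly Cyr61, changed by 0.87 ± 0.17 on the log2 scale in knockout-labelled cells (edgeR adjusted p = 0.00401). There it averaged 132 ± 24.5 CPM after docetaxel and 72.3 ± 1.16 CPM after DMSO. In wild-type cells it averaged 147 ± 23.4 CPM after docetaxel and 108 ± 27.7 CPM after DMSO, where the libraries overlapped. Thbs1, thrombospondin, was lower in both genotypes, by log2 fold changes of −0.45 ± 0.10 in knockout-labelled and −0.42 ± 0.10 in wild-type cells (edgeR adjusted p = 0.00793 and 0.00750).

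Proteins that activate integrins or carry their signal were all tested, 27 in number. Between genotypes under DMSO 0 were higher and 6 lower in knockout-labelled cells, with 1 and 8 at an unadjusted p below 0.05, 0 and 7 called by DESeq2 and 0 and 6 by limma-voom. Of all tested genes 6.60% were higher and 9.20% lower. The median log2 difference was −0.11 over the list against 0.01 for all genes. Ptk2b, the focal adhesion kinase relative Pyk2, averaged 39.0 ± 2.48 CPM in knockout-labelled and 72.0 ± 9.75 CPM in wild-type DMSO libraries (log2 difference −0.88 ± 0.10, edgeR adjusted p = 3.98e-05). Fermt2, kindlin-2, which with talin switches integrins on, averaged 63.4 ± 2.30 and 89.4 ± 12.8 CPM in the same groups (log2 difference −0.50 ± 0.10, edgeR adjusted p = 0.00313). Src, a kinase that binds the cytoplasmic tail of β3, averaged 111 ± 5.01 CPM in knockout-labelled and 151 ± 19.98 CPM in wild-type DMSO libraries (log2 difference −0.45 ± 0.10, edgeR adjusted p = 0.00766).

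After docetaxel 0 of 27 were higher and 4 lower in knockout-labelled cells, with 2 and 8 at an unadjusted p below 0.05 and 0 and 4 called by DESeq2 and by limma-voom. The 4 became 1 without knockout-labelled docetaxel library 1 or 3 or wild-type docetaxel library 2 or 3. Over all tested genes 2.50% were higher and 3.39% lower in this comparison. Ptk2b was lower here too, at 36.4 ± 1.07 CPM in knockout-labelled and 52.0 ± 2.45 CPM in wild-type docetaxel libraries (edgeR adjusted p = 0.00572). With docetaxel 2 of 27 were higher and 6 lower in wild-type cells, a sum of 8 that became 5 without wild-type docetaxel library 3 or wild-type DMSO library 3 and 14 with the GC correction. In knockout-labelled cells 2 were higher and 3 lower, a sum of 5 that became 3 without knockout-labelled docetaxel library 1 or 3, any knockout-labelled DMSO library or wild-type docetaxel library 3. The shares over all tested genes were 14.5% higher and 13.8% lower in wild-type cells, and 9.09% higher and 7.00% lower in knockout-labelled cells. Tns2, a tensin that ties β tails to actin, averaged 82.3 ± 5.23 CPM after docetaxel and 125 ± 2.21 CPM after DMSO in knockout-labelled cells (edgeR adjusted p = 0.000117). In wild-type cells it averaged 84.7 ± 4.69 CPM after docetaxel and 150 ± 5.65 CPM after DMSO (edgeR adjusted p = 8.49e-06).

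The 5 integrin inhibitors showed 0 calls between genotypes under DMSO or after docetaxel with edgeR, which called 15.8% and 5.89% of all tested genes. At an unadjusted p below 0.05 there were 1 higher and 1 lower under DMSO and 0 after docetaxel, and DESeq2 called 0 higher and 1 lower under DMSO and limma-voom 0. With docetaxel 0 were higher in either genotype, while 1 was lower in knockout-labelled cells and 2 were lower in the wild type. Of all tested genes 9.09% were higher and 7.00% lower in knockout-labelled cells, and 14.5% higher and 13.8% lower in the wild type. The single call in knockout-labelled cells was Flna, lost without knockout-labelled docetaxel library 1 or 3, any knockout-labelled DMSO library or wild-type docetaxel library 3, with no filter on low counts and in the 6 libraries of the contrast alone. The count there was 3 without knockout-labelled docetaxel library 2 and 2 without wild-type DMSO library 2 or 3. The calls in the wild type were Flna and Dok1, and Dok1 was lost without wild-type docetaxel library 1 or 3 or wild-type DMSO library 3. At an unadjusted p below 0.05, 2 were higher in knockout-labelled cells and 1 in the wild type. DESeq2 called 1 of these in knockout-labelled cells and 0 in the wild type, and limma-voom called 0 in both. Flna, filamin A, which covers the talin site on β tails, averaged 1457 ± 28.3 CPM after docetaxel and 1804 ± 67.5 CPM after DMSO in wild-type cells (log2 fold change −0.31 ± 0.08, edgeR adjusted p = 0.00855). It had an adjusted p of 0.0504 with the 6 libraries of the comparison alone.

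Of 14 trafficking genes 13 were tested, with 1 higher and 1 lower between genotypes under DMSO and 1 higher and 0 lower after docetaxel (0 lower at an unadjusted p below 0.05 and with DESeq2 or limma-voom). Rab25, an epithelial GTPase that recycles α5β1, was the one higher in both. It averaged 33.3 ± 0.954 CPM in knockout-labelled and 17.5 ± 1.07 CPM in wild-type DMSO libraries, and 29.5 ± 1.46 CPM in knockout-labelled and 12.0 ± 1.20 CPM in wild-type docetaxel libraries. The log2 differences were 0.93 ± 0.09 and 1.30 ± 0.10 (edgeR adjusted p = 1.90e-05 and 1.13e-06). The lower one under DMSO was Cav1, whose call was lost without any one knockout-labelled DMSO library or wild-type DMSO library 2. Over all tested genes 6.60% were higher and 9.20% lower under DMSO, and 2.50% higher and 3.39% lower after docetaxel.

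Docetaxel moved 2 of 13 trafficking genes up and 2 down in wild-type cells. In knockout-labelled cells 3 moved up and 1 down, a sum of 4 that became 1 or 2 without knockout-labelled docetaxel library 1 or any knockout-labelled DMSO library. The shares over all tested genes were 14.5% higher and 13.8% lower in wild-type cells, and 9.09% higher and 7.00% lower in knockout-labelled cells. Cav1, caveolin-1, the coat protein of caveolae, averaged 53.3 ± 3.86 CPM after docetaxel and 85.4 ± 4.76 CPM after DMSO in knockout-labelled cells. In wild-type cells it averaged 47.8 ± 1.80 CPM after docetaxel and 115 ± 24.5 CPM after DMSO. The log2 fold changes were −0.68 ± 0.12 and −1.27 ± 0.12 (edgeR adjusted p = 0.00183 and 1.40e-05).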

How the data were processed

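Per the labels' protocols, RNA of 12 cultures was depleted of ribosomal RNA, primed with random hexamers and sequenced as paired reads of 150 bases. The submitters' processing notes list bcl2fastq, STAR 2.5.1a and, from Subread, featureCounts 1.4.6-p5. The sources used here do not give the genome build, annotation or strand setting of the counting. What the authors deposited are raw counts per gene symbol, 1 column per library. Of the entries, 351 that repeated another in symbol and every count (0.907% of counts) were removed.

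Genes passing filterByExpr were tested with edgeR 4.0.16 (R 4.3.3), TMM scaling and 1 quasi-likelihood model of all 12 libraries with the 4 groups as terms. P-values, two-sided, had Benjamini-Hochberg adjustment over all genes tested within each of the 5 contrasts. SE is the absolute log2 difference over the square root of F. With 3 libraries a group and no word on shared cultures beyond the triplicates, p-values measure the spread between these samples. The scripts were tested on simulated data. Positions and lengths came from GENCODE M21 (GRCm38), promoter windows from RefSeq.

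Alternatives were DESeq2 1.42.0, limma-voom 3.58.1, RLE scaling, no filter, at least 1 CPM in 3 libraries, a replicate block, a fit on the 6 libraries of each contrast, a lowess GC correction (span 0.3), repeated entries kept, each library left out, and wild-type DMSO library 2 with knockout-labelled docetaxel library 3 left out. For lengths it was the longest transcript. Running these alternatives on list counts and list genes was chosen after seeing the data. Members and lists were chosen with earlier results of these data known. Besides the members, the rule for named genes took up to 3 called genes per list and contrast by size of change with a mean of at least 5 CPM, and the 5 genes most like Itgb3 by r. Spp1, Vtn, the fibrinogen chains and the partners of β2 and β7 were named after their values were seen.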

Additional observations from a re-analysis of the deposited data

How the results depend on the processing

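Over the alternatives, Itgb6 kept its direction and its call in both genotype comparisons, as did Itgb3 between genotypes after docetaxel and Itga5 between genotypes under DMSO. The Itgb3 increase with docetaxel in wild-type cells fell to a log2 fold change of 0.27, with an adjusted p of 0.0563, when the wild-type DMSO replicate 2 and the knockout-labelled docetaxel replicate 3 were both left out, and 0 members were called there. With docetaxel 2 members were called in wild-type cells at 1 CPM in 3 libraries or with the GC correction, and 0 in knockout-labelled cells with no filter. With the longest transcript as length the Itgb3 share was 3.66% in knockout-labelled DMSO and 4.63% in wild-type docetaxel libraries. The length used as divisor went from 5901 to 5784 bases for Itgb3, from 4081 to 3815 for Itgb1 and from 3553 to 3282 for Itgb5. It fell further for Itgav, from 10744 to 7054 bases, and for Itgb6, from 7111 to 4806. Itgav relative to the β sum and the Itgb6 share were therefore higher in every group. In knockout-labelled DMSO libraries Itgav went from 7.48% to 10.63% of the β sum and the Itgb6 share from 0.312% to 0.430%. In wild-type DMSO libraries Itgav went from 8.51% to 12.07% of the β sum. Why the calls changed was not tested.

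Small differences changed sign. With the GC correction Itgav after docetaxel between genotypes was −0.012, Itgb5 0.0035 and Itgb1 with docetaxel in knockout-labelled cells −0.014. Without the 2 libraries together, Itgb6 with docetaxel in wild-type cells was 0.046 and the Itga2b interaction 0.11. With 1 library left out, the log2 ranges that crossed 0 were −0.76 to 0.073 and −0.32 to 0.39 for Itga2b with docetaxel in knockout-labelled and wild-type cells, −0.66 to 0.18 for its interaction and −0.68 to 0.033 for its genotype difference under DMSO. They were −0.026 to 0.061 for Itgav, −0.035 to 0.11 for Itgb1 and −0.11 to 0.061 for Itgb5 between genotypes after docetaxel, and −0.091 to 0.036 for Itgb3 and −0.19 to 0.013 for Itgb5 between genotypes under DMSO. They were −0.014 to 0.13 for Itgb1 with docetaxel in knockout-labelled cells, −0.31 to 0.046 for Itgb6 with docetaxel in wild-type cells and −0.042 to 0.18 for the Itgb5 interaction.

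Calls over all genes for the interaction were 165 with DESeq2, 8 with limma-voom, 421 with no filter, 40 with the GC correction and 4 without the 2 libraries together. Without those 2, 1267 genes were called between genotypes under DMSO and 565 after docetaxel. Leaving out 1 library gave 1311 to 2881 genes for docetaxel in knockout-labelled cells, 1264 to 3273 and 467 to 1083 for genotype under DMSO and after docetaxel, and 2 to 431 for the interaction.

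The replicate numbers were not shown to pair the samples. Deviations of same-numbered libraries from their group means had correlations from −0.640 to 0.677 over 18 pairs (median 0.068), with 8 above 0.1. Pairs of libraries with different numbers had correlations from −0.669 to 0.614 over 36 pairs (median −0.044), with 10 above 0.1. With the replicate number as a block the Itgb3 change with docetaxel in wild-type cells was 0.33 (edgeR adjusted p = 0.0134), the interaction called 48 genes, and Itgav between genotypes under DMSO had an adjusted p of 0.0524.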
